A study of Rattus norvegicus with 32 samples.

Results

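Transcripts of the p38 mitogen-activated protein kinase (MAPK) pathway and of 4 dual-specificity phosphatases were followed in the left ventricles of septic male and female rats. The 10 genes were taken by symbol. A probe was counted when the gene name in either annotation version of the scanner files was Map3k6, Map3k8, Map2k3, Map2k6, Mapk14, Mapkapk2, Dusp1, Dusp4, Dusp5 or Dusp6, and control spots were left out. All 10 genes were found, on 12 of the 45598 probes and 33 of the 58717 spots of an array that carried 34912 different gene names. Mapk14 and Map2k3 each had a pair of probes, and the other 8 genes had 1 probe each.

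MAPK pathways are relays of protein kinases in which a MAP3K phosphorylates a MAP2K, and the MAP2K in turn phosphorylates a MAPK. The p38 branch responds to bacterial products, inflammatory cytokines and cell stress. In heart muscle it is known for its part in inflammatory gene expression, in cell death and in the depression of contraction. Dual-specificity phosphatases close the relay by removing the phosphates from the MAPK, and several of them are transcribed in response to the kinases they switch off. The arrays measured messenger RNA only, so phosphorylation and kinase activity were not analysed here.

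The rats were Wistar males and females aged 9 to 12 weeks. In each sex there were 5 sham rats, 5 rats with sepsis from cecal ligation and puncture (CLP) and 6 CLP rats that also received landiolol, a β1-blocker with a brief action, infused at 0.1 mg/kg/min from 1 h after CLP. Rats without landiolol received a similar volume of saline, the infusions held no antibiotic, and buprenorphine was given to all groups before surgery. All groups went through cardiac magnetic resonance imaging and then through perfusion of the isolated heart (Langendorff preparation) before the heart was frozen at hour 20. CLP is a model of abdominal sepsis, here followed to 1 time point, and the sham hearts too had been perfused outside the body.

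Each of the 32 RNA samples had an array of its own, read in 1 colour. Between 34920 and 43155 spots per array were well above background, and 0 spots were saturated. Levels below are normalised log2 intensities of 1 probe, set within a sex, and they cannot be compared between probes or between the sexes, since sex went together with the slides. Precision is limited by the 5 or 6 arrays of each group. All 8 cardiomyocyte marker genes examined were well above background on all 32 arrays. In bulk tissue, fewer cells of a type and less RNA per cell cannot be told apart. All 5 female sham arrays lay in row 1 of their slides and all 6 female CLP plus landiolol arrays in row 2. Only the female CLP arrays lay in both rows, so the row effect was estimated from them alone. This widened the errors, for Mapk14 in CLP plus landiolol compared with sham from an SE of 0.235 to 0.425. A call lost with the row term can therefore reflect lower precision. Values with the row as a term stand beside the female values of the 10 genes described below. They also stand beside the female calls of other pathway genes.

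Promoter sequences are shown for the 3 genes that were up-regulated after CLP in males, because they were the ones that passed there. They are the 250 bases before the annotated start of each gene, from RefSeq on build GRCr8, where 9 of the 10 genes had an entry. Capitals mark matches, on either strand, to any of 6 motifs: the GC box GGGCGG, the CCAAT box CCAAT, the half-site of the cAMP response element TGACG, the AP-1 site TGANTCA, the STAT site TTCNNNGAA and the E box CACGTG. Of these motifs, TGACG can overlap itself across the strands in a full cAMP response element. The sequences run 5′ to 3′ in the direction of the gene.
Mapk14 (chr20:6751109-6751358, plus strand): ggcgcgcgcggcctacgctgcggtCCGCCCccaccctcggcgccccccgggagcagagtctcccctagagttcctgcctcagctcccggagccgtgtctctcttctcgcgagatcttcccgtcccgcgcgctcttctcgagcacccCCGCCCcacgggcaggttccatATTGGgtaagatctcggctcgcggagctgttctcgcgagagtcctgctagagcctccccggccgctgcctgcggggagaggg
Mapkapk2 (chr13:45112327-45112576, minus strand): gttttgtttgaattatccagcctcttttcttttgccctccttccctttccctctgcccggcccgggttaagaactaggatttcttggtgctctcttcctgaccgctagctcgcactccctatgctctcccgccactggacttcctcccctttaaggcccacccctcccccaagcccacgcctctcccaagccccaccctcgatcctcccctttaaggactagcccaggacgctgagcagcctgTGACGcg
Map3k6 (chr5:150723995-150724244, plus strand): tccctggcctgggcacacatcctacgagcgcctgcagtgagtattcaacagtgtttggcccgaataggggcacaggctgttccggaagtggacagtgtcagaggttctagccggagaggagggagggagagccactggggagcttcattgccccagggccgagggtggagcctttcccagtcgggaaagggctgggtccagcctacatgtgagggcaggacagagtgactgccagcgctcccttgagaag

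The Mapk14 promoter held 2 GC boxes and 1 CCAAT box, all on the opposite strand, and 70.8% of its bases were G or C. The Mapkapk2 promoter held 1 match, a TGACG that began 7 bases before the start. The Map3k6 promoter held none of the 6 motifs, which says only that these letters are not in this window. Over the 33469 RefSeq promoters, the window held a GC box in 30.5%, a CCAAT box in 34%, TGACG in 18.2%, the AP-1 site in 6.34%, the STAT site in 7.67% and the E box in 5.59%. No motif was common to the 3 promoters. Among the 9 genes with an entry, 5 held a GC box, 5 a CCAAT box, 3 TGACG, 1 the AP-1 site, 0 the STAT site and 1 the E box.

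In the males, CLP was compared with sham at an FDR of 1%, over all probes that stood clear of the background on 80% or more of the arrays of any group. Mapk14, Mapkapk2 and Map3k6 were up-regulated, between 1.88-fold and 2.40-fold, and 0 of the 10 genes were down-regulated. These 3 of 10 stood against 7.81% of all 25864 probes tested. The 10 genes were chosen with earlier results of these data known, so such shares are no test of the set. The groups did not overlap for the same 3 genes, by the brightest probe of each, against 12.3% of all probes. An unadjusted p under 0.05 was reached by 4 genes, the fourth being Map2k6, against 28.8% of all probes. The median log2 change of the 10 genes was 0.01 and its median size 0.59, against 0.009 and 0.24 over all probes.

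In the males, landiolol was compared with CLP alone at an FDR of 5%. Mapkapk2 was down-regulated by landiolol, to 2.37-fold below the CLP group, and it was the only gene of the 10 that passed, against 1.56% of all probes. It was also the only gene whose groups did not overlap, against 2.26% of all probes. Mapk14 and Dusp6 did not pass the FDR but had an unadjusted p under 0.05, as Mapkapk2 did, which made 3 of 10 genes against 14.8% of all probes. Over the 10 genes the median log2 change was -0.07, against -0.006 over all probes. This comparison and that of CLP with sham share the 5 CLP arrays, so their opposite signs for Mapkapk2 and Mapk14 are not independent of each other. In the males, CLP plus landiolol compared with sham at an FDR of 1% gave 0 of 10 genes (limma), against 4.15% of all probes, and 5 genes had an unadjusted p under 0.05, against 24.2% of all probes. The groups did not overlap for Mapk14 and Map2k3, each by its brighter probe, against 7.79% of all probes. By the second probe of either gene they overlapped.

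In the females, 9 genes could be tested, because Dusp4 was too dim. At an FDR of 1%, 0 of the 9 genes passed for CLP compared with sham (limma), against 3.63% of all 25394 probes. Mapk14, Mapkapk2 and Map2k6 had an unadjusted p under 0.05, against 23.1% of all probes, and the groups did not overlap for Mapk14 and Mapkapk2, against 8.32% of all probes. For landiolol compared with CLP, 0 of the 9 genes passed an FDR of 5% (limma), against 0.0945% of all probes, and 4 genes had an unadjusted p under 0.05, against 9.34% of all probes. No gene had groups that did not overlap there, against 1.15% of all probes. For CLP plus landiolol compared with sham, 0 of the 9 genes passed an FDR of 1% (limma), against 5.25% of all probes, and 3 genes had an unadjusted p under 0.05, against 26.7% of all probes. The groups did not overlap for Mapk14 alone, by its brighter probe, against 9.74% of all probes. By its second probe they overlapped.

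**Figure D1:**
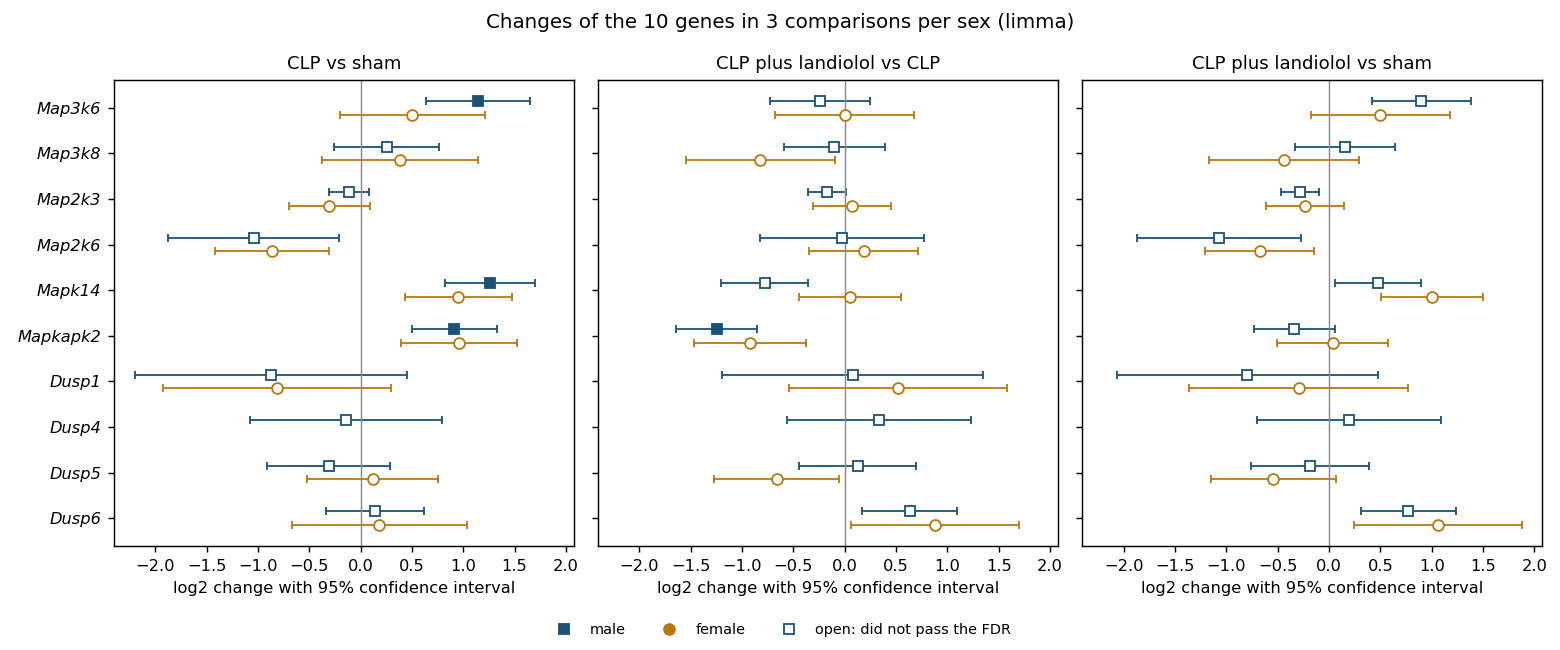
Log2 change (x axis) of each of the 10 genes (y axis) in the 3 comparisons, for males (squares) and females (circles), with bars for the 95% confidence interval of the limma fit. Filled symbols passed the FDR of their comparison, 1% for both comparisons with sham and 5% for landiolol compared with CLP. The filled symbols are Map3k6, Mapk14 and Mapkapk2 for CLP compared with sham and Mapkapk2 for landiolol compared with CLP, all in males. Dusp4 has no female symbol because its probe was too dim.

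At the top of the relay, Map3k6 encodes ASK2, a stress-activated MAP3K that works together with its relative ASK1. Its probe (chromosome 5 from 151873640 to 151873699 on rn4, the build that the file headers state) was well above background on all 32 arrays. In the male sham rats its levels were 11.37, 11.54, 11.96, 12.48 and 12.57. In the male CLP rats they were 12.66, 13.14, 13.24, 13.26 and 13.32, all above the highest sham array. With landiolol the 6 male arrays lay between 12.37 and 13.35 with a median of 12.92, a range that overlapped those of both other groups.

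The mean level of Map3k6 in males went from 11.98 ± 0.54 (SD, n = 5) in the sham group to 13.12 ± 0.27 (SD, n = 5) in the CLP group, a log2 change of 1.14 (SE 0.24, adjusted p = 0.00407, limma). The change was 1.31 on the first male slide and 1.09 on the second. The call was lost in 5 of the 16 fits without a single array, those without replicate 2 or 4 of the sham group or without replicate 3, 4 or 5 of the CLP group. The log2 changes of those 5 fits lay between 0.99 and 1.14 and their adjusted p between 0.011 and 0.0124. It was also lost when only the sham and CLP arrays were fitted (adjusted p = 0.0131), and over all 27 alternatives the adjusted p ran from 0.00243 to 0.0131. Landiolol compared with CLP gave a log2 change of -0.24 (SE 0.23, adjusted p = 0.638), with a 95% confidence interval from -0.73 to 0.24. Against sham the landiolol group still stood at 0.90 (SE 0.23, adjusted p = 0.0198), which did not pass.

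In the females, the sham levels of Map3k6 were 11.25, 11.55, 11.79, 12.63 and 12.86. Those of the CLP rats were 12.16, 12.25, 12.57, 12.79 and 12.82 and lay within the sham range. With landiolol they lay between 11.89 and 13.26 with a median of 12.40. The log2 change after CLP was 0.50 (SE 0.33, adjusted p = 0.407), with an interval from -0.20 to 1.21, so the size seen in males lies within it. With a term for the row it was 0.40 (adjusted p = 0.654).

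Map3k8 encodes TPL2, a MAP3K that acts mainly on the ERK branch downstream of Toll-like and TNF receptors. Its probe was well above background on all 32 arrays, with levels between 10.06 and 11.27 in the males and between 9.48 and 11.87 in the females, and in each sex the 3 groups overlapped. None of its 6 changes passed. The largest was that after landiolol in females, with a log2 change of -0.82 (SE 0.34, adjusted p = 0.463) from 11.22 ± 0.60 (SD, n = 5) to 10.40 ± 0.69 (SD, n = 6). On the female slides this change was -0.21 and -1.25, and with a term for the row it was -0.52 (adjusted p = 0.9999).

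The MAP2K level holds Map2k3 and Map2k6, which encode MKK3 and MKK6, the kinases that phosphorylate p38. Map2k3 varied little in the males. Its sham levels were 13.17, 13.22, 13.22, 13.36 and 13.41, those after CLP were 13.09, 13.11, 13.15, 13.18 and 13.27, and those after landiolol lay between 12.85 and 13.13 with a median of 12.97. Every landiolol array therefore lay below every sham array, and the CLP arrays bridged both groups. For CLP plus landiolol compared with sham the log2 change was -0.29 (SE 0.09, adjusted p = 0.0482), which did not pass the FDR of 1%. In the table of log2 values that the authors deposited, the same change was -0.36 (adjusted p = 0.00997, just past the FDR), and over the 28 alternatives the adjusted p ran from 0.00997 to 0.184. The second probe of Map2k3 gave -0.57 there (adjusted p = 0.184), and on it the landiolol and sham groups overlapped. In females the levels overlapped between the groups, with log2 changes from -0.31 to 0.07, or from -0.30 to 0.08 with a term for the row. After CLP in females the probes of Map2k3 differed in sign, with -0.31 for the brighter and 0.27 for the dimmer probe, and neither passed (adjusted p = 0.357 and 0.582). The same held in males, with -0.11 and 0.05 (adjusted p = 0.461 and 0.939).

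Map2k6 was dim, with its probe well above background on 14 of the 16 arrays of each sex. In the male sham rats its levels were 5.82, 6.57, 6.62, 6.71 and 6.83, and after CLP they were 4.05, 5.08, 5.71, 5.73 and 6.78. The CLP arrays were widely spread, and the highest of them lay inside the sham range. The log2 change was -1.04 (SE 0.39, adjusted p = 0.0863), and it was -0.15 on the first male slide and -2.13 on the second. With landiolol the levels lay between 4.70 and 5.97 with a median of 5.50, a change of -1.07 against sham (SE 0.38, adjusted p = 0.0864). In the females the sham levels were 5.47, 5.77, 5.82, 6.28 and 6.50 and those after CLP 4.44, 4.80, 5.35, 5.40 and 5.54. There the log2 change was -0.86 (SE 0.26, adjusted p = 0.0498), on the female slides -1.01 and -0.80, and with a term for the row -0.86 (adjusted p = 0.144). Lower values in the septic groups were thus measured in both sexes without passing the FDR of 1%. The size of the change depended on the background correction. With the normexp correction, it was -0.45 in males and -0.37 in females after CLP. That correction adds an offset of 50, which by itself makes the log2 changes of a dim probe smaller.

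Mapk14 encodes p38α, the main p38 kinase of heart muscle and of inflammatory cells. Its brighter probe (10 spots, chromosome 20 from 7000314 to 7000373, rn4) was well above background on all 32 arrays. The male sham levels were tightly grouped at 13.04, 13.12, 13.13, 13.14 and 13.19. After CLP the levels were 13.70, 14.34, 14.39, 14.68 and 14.83, all above the highest sham array. The 6 male landiolol arrays lay between 13.24 and 14.21 with a median of 13.46, above every sham array and overlapping the lower part of the CLP group.

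In the males, Mapk14 was up-regulated by CLP from 13.13 ± 0.05 (SD, n = 5) to 14.39 ± 0.44 (SD, n = 5), a log2 change of 1.26 (SE 0.21, adjusted p = 0.000746, limma). The change was 1.01 on the first male slide and 1.64 on the second, and it passed the FDR in all 28 alternatives, with log2 changes from 1.15 to 1.44. The second probe (chromosome 20 from 6999918 to 6999976) gave 1.20 (adjusted p = 0.00406), although there the ranges of the groups overlapped. The mean after landiolol was 13.61 ± 0.37 (SD, n = 6), a log2 change of -0.78 against CLP (SE 0.20, adjusted p = 0.0608), just short of the FDR of 5%. The second probe gave -0.97 (adjusted p = 0.0563).

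Whether Mapk14 passed after landiolol in males turned on the setting. It did so with 75th-percentile scaling (log2 change -0.82, adjusted p = 0.045), with the normexp correction (-0.80, adjusted p = 0.0377), with array weights (-0.94, adjusted p = 0.00374), without replicate 1 of the CLP group (-0.95, adjusted p = 0.00817) and without replicate 1 of the landiolol group (-0.90, adjusted p = 0.0328). Over all 28 alternatives the adjusted p ran from 0.00374 to 0.18 and the log2 change from -0.97 to -0.67. Replicate 1 was the lowest array of the CLP group, and replicate 1 the highest of the landiolol group. Against sham, the landiolol group kept a log2 change of 0.48 (SE 0.20, adjusted p = 0.144), which did not pass. The second probe gave 0.23 there (adjusted p = 0.598), and its landiolol and sham groups overlapped.

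In the females, the sham levels of Mapk14 were 12.80, 12.90, 12.99, 13.04 and 13.36. After CLP they were 13.57, 13.72, 13.81, 14.10 and 14.64, all above the highest sham array. With landiolol they lay between 13.47 and 14.65 with a median of 13.87, again all above the sham group and over the whole range of the CLP group. The log2 change after CLP was 0.95 (SE 0.25, adjusted p = 0.023), and that of CLP plus landiolol compared with sham was 1.003 (SE 0.24, adjusted p = 0.0109), so neither passed the FDR of 1%. With a term for the row they were 0.81 (adjusted p = 0.129) and 0.65 (adjusted p = 0.678). The second of them passed without replicate 5 of the CLP group (adjusted p = 0.00531), without replicate 4 of the landiolol group (adjusted p = 0.00611), with the normexp correction (adjusted p = 0.00773) and with array weights (adjusted p = 0.00363). Landiolol compared with CLP gave 0.05 (SE 0.24, adjusted p = 0.975), with an interval from -0.45 to 0.55, and -0.16 with a term for the row (adjusted p = 0.9999). The second probe gave 1.05 after CLP (adjusted p = 0.0387) and -0.05 for landiolol compared with CLP (adjusted p = 0.979). For CLP plus landiolol compared with sham it gave 0.99 (adjusted p = 0.0329), and there its groups overlapped.

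Mapkapk2 encodes MK2, the kinase that p38α activates, which phosphorylates the small heat shock protein HSPB1 and the messenger RNA binding protein tristetraprolin. Its probe lies on chromosome 13 from 43995253 to 43995312 (rn4). In the male sham rats the levels were 14.57, 14.75, 14.75, 14.92 and 15.14. After CLP they were 15.32, 15.59, 15.66, 15.84 and 16.26, all above the highest sham array. With landiolol they lay between 14.10 and 15.01 with a median of 14.36, all below the lowest CLP array and overlapping the sham group.

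In the males, Mapkapk2 was up-regulated by CLP from 14.82 ± 0.21 (SD, n = 5) to 15.74 ± 0.35 (SD, n = 5), a log2 change of 0.91 (SE 0.20, adjusted p = 0.00486, limma). The change was 1.10 on the first male slide and 0.70 on the second. This call was lost in 5 of the 16 fits without a single array, those without replicate 1, 3 or 5 of the sham group or replicate 3 or 4 of the CLP group, where the log2 change lay between 0.78 and 0.89 and the adjusted p between 0.0126 and 0.0144. Over all 27 alternatives the adjusted p ran from 0.00324 to 0.0144.

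With landiolol, Mapkapk2 was down-regulated in males to 14.49 ± 0.35 (SD, n = 6), a log2 change of -1.25 against CLP (SE 0.19, adjusted p = 0.00496, limma). It was -1.61 and -0.83 on the male slides. The call passed in all 27 alternatives, the 16 fits without a single array included, with log2 changes from -1.36 to -1.12 and adjusted p from 0.00195 to 0.0243. Against sham, the landiolol group had a log2 change of -0.34 (SE 0.19, adjusted p = 0.29), with an interval from -0.73 to 0.06.

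In the females, the sham levels of Mapkapk2 were 14.42, 14.69, 14.71, 14.79 and 14.91, and those after CLP were 15.01, 15.23, 15.75, 15.93 and 16.41, all above the sham group. With landiolol they lay between 14.25 and 15.41 with a median of 14.65, and 4 of the 6 arrays lay below the lowest CLP array. The log2 change after CLP was 0.96 (SE 0.27, adjusted p = 0.0335), and with a term for the row it was 0.93 (adjusted p = 0.121). After landiolol it was -0.93 (SE 0.26, adjusted p = 0.197), on the female slides -1.18 and -0.81, and with a term for the row -0.97 (adjusted p = 0.656). Neither passed. With array weights both did, at 1.15 (adjusted p = 0.00606) and -1.14 (adjusted p = 0.0357), and over the 27 alternatives of each the adjusted p ran from 0.00606 to 0.121 and from 0.0357 to 0.656.

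**Figure D2:**
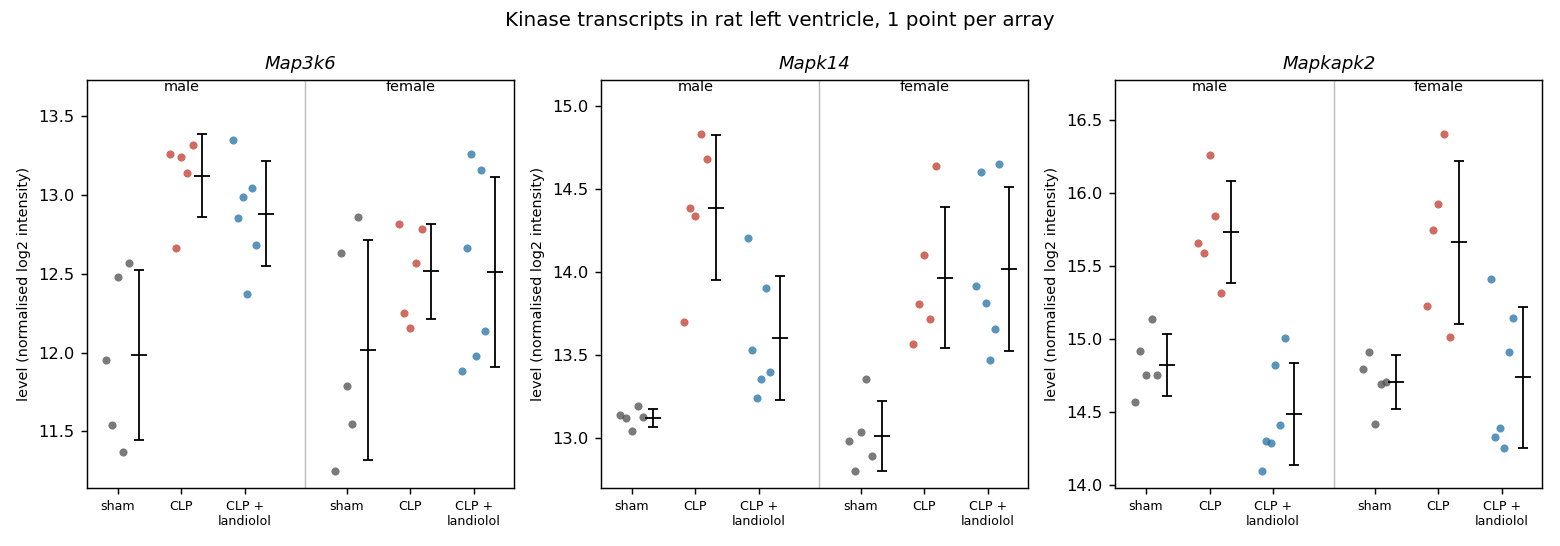
Levels of Map3k6, Mapk14 and Mapkapk2 (y axis, normalised log2 intensity of the brightest probe) in the sham, CLP and CLP plus landiolol groups of males and females, which stand side by side in each panel, with 1 point per array and the mean ± SD beside each group. In males the CLP arrays of all 3 genes lie above the sham arrays, and the landiolol arrays of Mapkapk2, from 14.10 to 15.01, lie below all CLP arrays. The y axes differ between the panels and do not start at 0.

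Among the phosphatases, Dusp1 encodes MKP-1, an immediate early phosphatase of p38 and JNK that glucocorticoids and stress induce. Its levels were widely spread, with SDs between 0.44 and 1.28 in the 6 groups. In the male sham rats they were 9.04, 9.75, 10.33, 10.92 and 11.27, and after CLP 7.80, 9.32, 9.58, 10.07 and 10.18. With landiolol the male levels lay between 7.81 and 10.63 with a median of 9.99, and the 3 groups overlapped. The log2 change after CLP was -0.87 in males (SE 0.63, adjusted p = 0.406), with an interval from -2.20 to 0.46. In females it was -0.81 (SE 0.52, adjusted p = 0.389), with an interval from -1.92 to 0.30 and values of 0.48 and -1.82 on the female slides. With a term for the row it was -0.65 (adjusted p = 0.64). Changes of this size could not be told from 0 with the spread of these arrays.

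Dusp4 encodes MKP-2, a nuclear phosphatase. Its probe was well above background on 8 of the 16 male and 2 of the 16 female arrays. In males it was kept through the sham group, where 4 of the 5 arrays were well above background, against 1 of 5 in the CLP group and 3 of 6 with landiolol. The male levels lay between 3.04 and 5.93, with log2 changes between -0.14 and 0.33 in the 3 comparisons, of which 0 passed (adjusted p = 0.727 to 0.887). Within the females there was no test. The sex difference below kept Dusp4 through the male sham group alone. Its female part there rests mostly on values that were not well above background.

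Dusp5 encodes a nuclear phosphatase of ERK. In males its levels lay between 12.30 and 14.03 in the sham group, between 12.35 and 13.26 in the CLP group and between 12.38 and 13.23 with landiolol. The groups overlapped, and the log2 changes lay between -0.31 and 0.12. In females the levels after landiolol, between 12.11 and 12.88 with a median of 12.36, stood beside means of 12.94 ± 0.54 (SD, n = 5) in the sham group and 13.06 ± 0.66 (SD, n = 5) in the CLP group, and the groups overlapped. Landiolol compared with CLP gave -0.66 (SE 0.29, adjusted p = 0.485), which did not pass. This value went to -0.25 with a term for the row (adjusted p = 0.9999) and to -1.003 with array weights (adjusted p = 0.0786). Compared with sham it was -0.55 (SE 0.29, adjusted p = 0.242), and the row term turned its direction, to 0.14 (SE 0.49, adjusted p = 0.956).

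Dusp6 encodes MKP-3, a cytoplasmic phosphatase of ERK. Its 10 spots were well above background on all 32 arrays. In the male sham rats its levels were 11.69, 11.81, 11.95, 12.03 and 12.25, and after CLP they were 11.67, 11.74, 11.80, 12.55 and 12.68. With landiolol they lay between 12.15 and 13.16 with a median of 12.80. In the CLP group 3 arrays thus lay below the sham median and 2 above the highest sham array, and 5 of the 6 landiolol arrays lay above the highest sham array. Landiolol compared with CLP gave a log2 change of 0.63 in males (SE 0.22, adjusted p = 0.177) and of 0.88 in females (SE 0.39, adjusted p = 0.493). Compared with sham the values were 0.77 (SE 0.22, adjusted p = 0.0336) and 1.06 (SE 0.39, adjusted p = 0.0841). None of the 4 passed. The male change against CLP passed with array weights alone, at 0.75 (adjusted p = 0.0421), and over its 27 alternatives the adjusted p ran from 0.0421 to 0.355. In females a term for the row took the change against CLP to 0.33 (adjusted p = 0.9999) and that against sham to 0.15 (adjusted p = 0.967). CLP compared with sham gave 0.14 in males and 0.18 in females, the latter -0.18 with the row term, and neither passed (adjusted p = 0.753, 0.846 and 0.878).

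**Figure D3:**
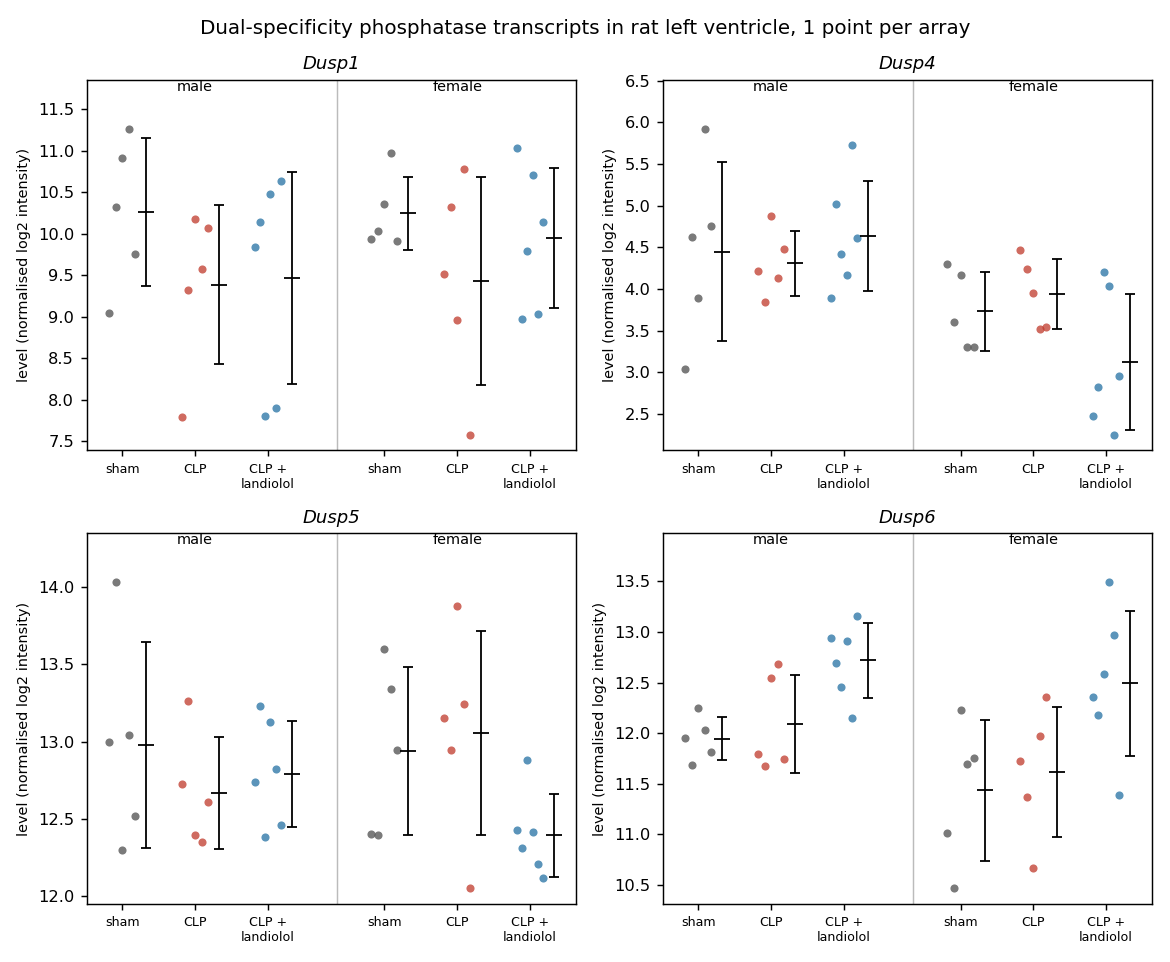
Levels of the 4 phosphatases (y axis, normalised log2 intensity) in the sham, CLP and CLP plus landiolol groups of males and females, which stand side by side in each panel, with 1 point per array and the mean ± SD beside each group. The groups overlap in every panel, and for Dusp6 the landiolol means, 12.72 in males and 12.49 in females, are the highest of each sex. The y axes differ between the panels and do not start at 0.

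Whether the changes differed between the sexes was tested on all 32 arrays normalised together, as the male minus the female change, at an FDR of 5%. For CLP compared with sham, 0 of the 10 genes passed (limma), against 0% of all 26490 probes. An unadjusted p under 0.05 was reached by 0 of them, against 3.76% of all probes. For landiolol compared with CLP, 0 of 10 passed, against 0% of all probes. There 1 gene, Mapk14, had an unadjusted p under 0.05, against 4.93% of all probes. Its male change was lower than its female change by 0.85 on the log2 scale (SE 0.31, 95% confidence interval from -1.49 to -0.21, adjusted p = 0.969, limma). The second probe gave a difference of -0.91 (adjusted p = 0.969). For Mapkapk2 the difference was -0.32, with an interval from -0.98 to 0.34. For CLP plus landiolol compared with sham, 0 of 10 passed, against 0% of all probes. An unadjusted p under 0.05 was reached by 0 of them there, against 6.3% of all probes. A call in males without one in females is therefore no shown difference between them for any of these genes.

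The rest of the pathway was followed through 90 further genes in 7 lists, by the brightest probe of each, and 89 of them were on the array. Of the 86 tested for CLP compared with sham in males, 6 were up-regulated and 3 down-regulated, against 7.81% of all probes, with a median log2 change of 0.005. Of the 85 tested in females, 4 were up-regulated and 1 down-regulated, against 3.63% of all probes. After landiolol, 1 was up-regulated and 1 down-regulated in males, against 1.56% of all probes, and 0 passed in females (limma), against 0.0945%. For CLP plus landiolol compared with sham, 5 were up-regulated in males, against 4.15% of all probes, and 2 were up-regulated and 1 down-regulated in females, against 5.25%. The shares of all probes are the measure for the counts of each list below as well. With a term for the row, none of the 8 female calls passed, and their values with that term stand beside them below. The row term also took the share of all probes that passed to 1.33% for CLP compared with sham and to 0.0788% for CLP plus landiolol compared with sham.

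At the top of the relay, 22 genes for MAP3Ks and their adaptors were tested. Zak, a MAP3K that activates p38 and JNK, was up-regulated by CLP in both sexes, by 0.67 in males (SE 0.12, adjusted p = 0.00162) and by 0.75 in females (SE 0.16, adjusted p = 0.00874). With the row term the female value was 0.69 (adjusted p = 0.0551). Gadd45b, which binds and activates MAP3K4, was down-regulated in males, with -0.90 (SE 0.21, adjusted p = 0.0079). Traf6, the ubiquitin ligase that links Toll-like and interleukin 1 receptors to MAP3Ks, was down-regulated in females, with -0.84 (SE 0.17, adjusted p = 0.00585) and -0.94 with the row term (adjusted p = 0.0133), and was at 0.28 in males (SE 0.17, adjusted p = 0.29). At the next levels, 0 of the 5 other MAP2K genes, 0 of the 6 ERK and JNK genes tested and 0 of the 3 other p38 kinases passed in any of the 6 comparisons. The other p38 kinases were Mapk11, Mapk12 and Mapk13, whose log2 changes after CLP in males were -0.52 (SE 0.20, adjusted p = 0.0881), -0.08 (SE 0.20, adjusted p = 0.854) and 0.12 (SE 0.14, adjusted p = 0.657).

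Among 17 effectors and substrates of p38, 3 were up-regulated and 2 down-regulated by CLP in males, and 2 were up-regulated in females. Rps6ka5 encodes MSK1, a kinase of CREB and histone H3 downstream of p38 and ERK. In the males it lay between 8.94 and 9.59 in the sham group and between 10.37 and 10.91 in the CLP group, a log2 change of 1.37 (SE 0.18, adjusted p = 0.000114). With landiolol it lay between 8.99 and 9.92, below all CLP arrays, a change of -1.23 (SE 0.17, adjusted p = 0.00332). It was therefore up-regulated by CLP and down-regulated by landiolol in males, as Mapkapk2 was, in comparisons that share the CLP arrays. In females it was up-regulated by 1.22 after CLP (SE 0.20, adjusted p = 0.00152), or by 1.08 with the row term (adjusted p = 0.0156), and after landiolol it was at -0.69 (SE 0.20, adjusted p = 0.21).

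Hspb1, the substrate of MK2, was up-regulated by 0.99 in males (SE 0.23, adjusted p = 0.00817). In females it had the same log2 change of 0.99 with a larger error (SE 0.37, adjusted p = 0.112), and after landiolol it was at -0.81 in males (SE 0.22, adjusted p = 0.0828). Max, the partner of MYC, was up-regulated by 0.69 in males (SE 0.09, adjusted p = 0.000132) and 0.71 in females (SE 0.15, adjusted p = 0.00857), where the row term gave 0.73 (adjusted p = 0.0328), and in males it was also above sham with landiolol, by 0.61 (SE 0.09, adjusted p = 0.000408). Ddit3, the stress transcription factor CHOP, was down-regulated in males, with -1.31 (SE 0.25, adjusted p = 0.00216), and so was Mef2a, a transcription factor of muscle, with -0.68 (SE 0.12, adjusted p = 0.00113). Zfp36, which encodes tristetraprolin, was at 0.17 in males (SE 0.25, adjusted p = 0.719).

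Of 26 further phosphatases, 25 were tested in each sex. Ptprr, a tyrosine phosphatase that binds ERK and p38, was up-regulated in males after CLP, by 1.001 (SE 0.19, adjusted p = 0.00179), and stayed above sham with landiolol, by 0.82 (SE 0.18, adjusted p = 0.00805). Dusp26, an atypical dual-specificity phosphatase, was up-regulated by landiolol in males. It lay between 9.84 and 10.69 in the CLP group and between 10.89 and 11.56 with landiolol, a log2 change of 1.09 (SE 0.18, adjusted p = 0.00757). In females the change was 1.15 (SE 0.23, adjusted p = 0.0699), or 0.81 with the row term (adjusted p = 0.611). Against sham the landiolol groups stood higher by 1.24 in males (SE 0.18, adjusted p = 0.000533) and by 1.80 in females (SE 0.23, adjusted p = 0.00015). All female sham arrays lay in the other row from the female landiolol arrays, and with the row term the last value was 1.23 (adjusted p = 0.249). Ptpn7, a tyrosine phosphatase of ERK and p38, was higher with landiolol than in sham in males, by 0.82 (SE 0.14, adjusted p = 0.00207), and Dusp15 was lower in females, with -1.68 (SE 0.37, adjusted p = 0.0078), or -1.79 with the row term (adjusted p = 0.389).

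Among the feedback inhibitors of ERK, 8 were tested in males and 7 in females, and 1 passed. Spred3, of a family that holds back RAS and RAF signalling, had the largest change of all pathway genes examined here. It lay between 6.73 and 8.08 in the male sham group and between 9.42 and 9.99 after CLP, a log2 change of 2.37 (SE 0.29, adjusted p = 8.12e-05). In females the change was 1.87 (SE 0.30, adjusted p = 0.00105), and 1.68 with the row term (adjusted p = 0.0109). With landiolol it stayed above sham by 1.68 in males (SE 0.28, adjusted p = 0.00136) and by 1.83 in females (SE 0.28, adjusted p = 0.000686), where the row term gave 1.36 (adjusted p = 0.361).

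**Figure D4:**
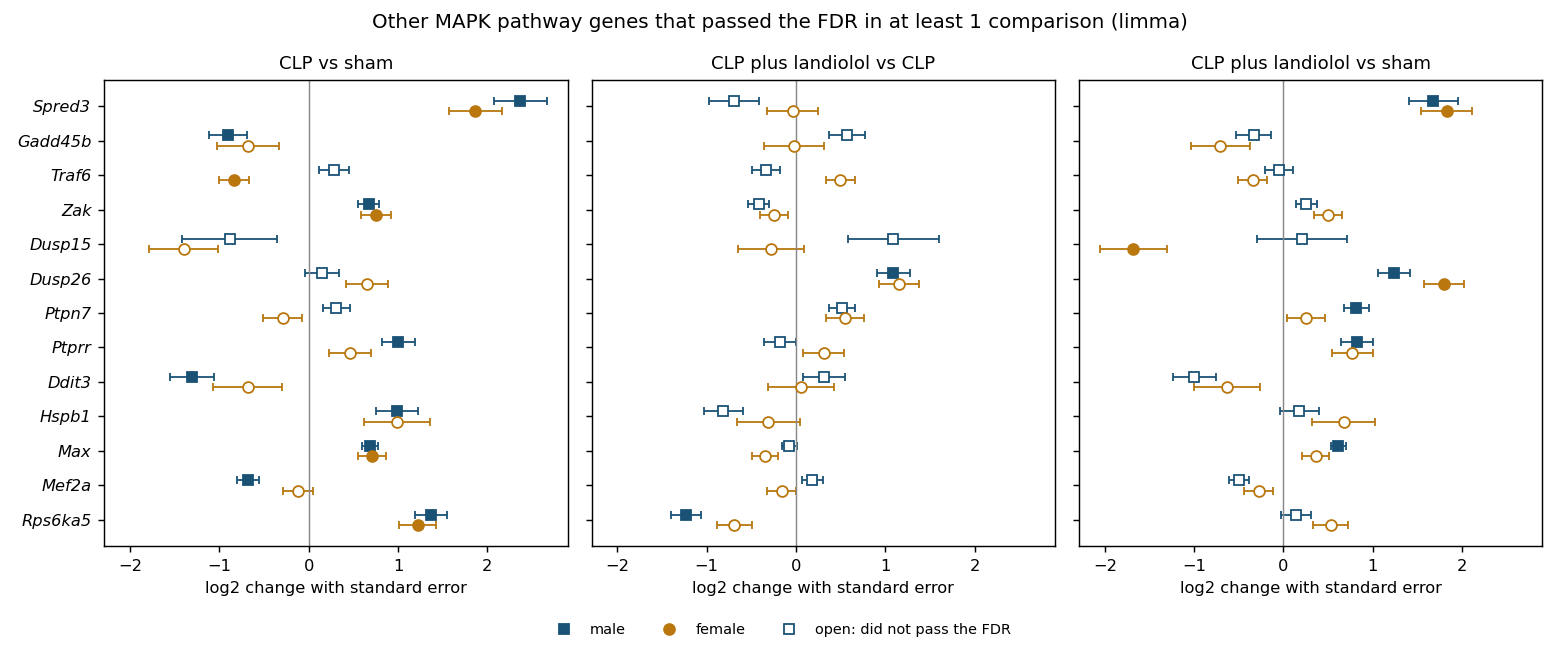
Log2 change (x axis) of the 13 further pathway genes that passed the FDR in at least 1 comparison (y axis), for males (squares) and females (circles), with bars for the standard error of the limma fit. Filled symbols passed in the fit without the row term, and none of the filled female symbols passed with it. Spred3 is farthest right for CLP compared with sham, at 2.37 in males, and Rps6ka5 is farthest left for landiolol compared with CLP, at -1.23 in males.

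Some markers of other cells moved with CLP, and others did not. Markers were examined without the row term. Of 7 macrophage and monocyte genes on the array, 3 were up-regulated in males and 2 in females. Their summed signal ran from 3837 to 5273 in the male sham group, from 6751 to 11140 in the CLP group and from 5386 to 11240 with landiolol. In females the ranges were 3973 to 6369 over the 4 sham arrays on which all 7 had a value, 7203 to 10830 after CLP and 7945 to 10140 with landiolol. Of 7 neutrophil genes, 2 were bright enough in males and 3 in females. In the male sham group neither of the 2 was above background on all arrays, and both were kept through groups where they are high. No count of calls and no rise after CLP is therefore read from the neutrophil genes. The summed signal of the neutrophil genes ran from 19.3 to 30.1 in male sham, from 101.5 to 766.5 in male CLP and from 243.6 to 828.8 in male landiolol rats. In females it ran from 38.3 to 86.1, from 150.7 to 433.3 and from 188.2 to 1075. The 3 lymphocyte genes bright enough in males had a summed signal from 719.3 to 1068 in the sham group, from 493.5 to 687.8 in the CLP group and from 593.6 to 984.5 with landiolol. Their log2 changes after CLP were -0.86 for Nkg7, -0.10 for Cd3d and -0.75 for the dim Cd8a. None of the 3 passed, so the lower sum is not read as a fall of the whole list. The up-regulation of Mapk14, Mapkapk2 and Map3k6 in the male CLP group came with more macrophage and monocyte signal. The part of that signal in the up-regulation was not tested. In the male landiolol group, where Mapkapk2 was lower, the macrophage and monocyte sum had a median of 9848, against 8484 in the CLP group. The median neutrophil sum was 497.5, against 154.7, and for both sums the ranges overlapped. The part of these cells in the lower Mapkapk2 was not tested. Of 6 fibroblast genes, 1 was up-regulated and 3 down-regulated by CLP in males, and 0 of 6 passed in females. For the 8 cardiomyocyte and 6 endothelial genes, and for the lymphocyte genes bright enough to test (3 in males, 2 in females), 0 passed after CLP in either sex (limma).

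Across the 16 arrays of each sex, the probes most like Mapk14 were found by the mean of both within-sex Pearson correlations over 24768 probes. These values describe arrays that share the 3 groups of a sex and carry no test. The closest 5 named genes were Gnptab (r = 0.956 in males and 0.925 in females), Hpf1 (0.953 and 0.911), Cfdp1 (0.943 and 0.897), Cdh16 (0.932 and 0.905) and Stat3 (0.937 and 0.895). Against these, Mapk14 and Mapkapk2 correlated at 0.52 in males and 0.21 in females, Mapk14 and Map3k6 at 0.67 and 0.23, and Mapkapk2 and Map3k6 at 0.153 and 0.002. The genes most like Map3k6 were Gnai3 (0.926 and 0.841), Pla1a (0.881 and 0.832) and Peak1 (0.956 and 0.753). For Dusp5 the closest were weaker, with Tmprss9 at 0.661 and 0.622, Foxc2 at 0.757 and 0.481 and Gamt at 0.613 and 0.552.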

How the data were processed

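RNA from the left ventricles of 32 rats was measured on 1-colour Agilent arrays. The authors scanned the arrays and extracted spot intensities with Feature Extraction 10.5, and the processed intensity deposited for each spot is background-subtracted within the array only. A table of log2 values was also deposited, which the authors had quantile-normalised and filtered on background for each sex apart. It was used as an alternative, and any offset they added before the log is not given in the sources used here.

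Here, spots flagged as outliers and control spots were left out, processed intensities were put on the log2 scale, the mean was taken over the spots of each probe, and quantile normalisation was done over the 16 arrays of a sex. A probe entered the tests if it stood clear of the background on 80% or more of the arrays of any group. Groups came from the labels, and the replicate numbers only name samples. limma 3.58.1 in R 4.3.3 (lmFit and eBayes) was run over all kept probes of the 3 groups of a sex, with Benjamini-Hochberg adjustment at an FDR of 1% for the comparisons with sham and 5% for landiolol compared with CLP. The difference between the sexes was fitted on 32 arrays normalised together, at 5%. All adjusted p-values are from limma, in these fits or in the alternatives named below. They set a change against the spread between these samples. A gene with several probes was taken by the probe with the highest mean, and the other probe is given beside it for part of the comparisons. For the other pathway genes, up to 10 per comparison with the largest change among those that passed were to be named, which took in all that passed. The 3 other p38 kinases and Zfp36 were named after their values were seen. The genes most like Mapk14 (5), Map3k6 (3) and Dusp5 (3) were named by correlation. The study's own test, significance analysis of microarrays, was not run here, and limma took its place at the same FDR. The members and the gene lists were chosen with earlier results of these data known. The fits were tested on simulated data. Alternatives were 75th-percentile scaling, the normexp background correction with an offset of 50, other filters on dim probes, the slide or its row as a term, array weights, exchanged FDR levels, only the 2 groups compared, normalisation of the sexes together, the deposited table, other probes and leaving out each array. 0 columns of per-sample values were without a sample. Promoters were read from RefSeq tables of build GRCr8, and probe positions are those of the scanner files (rn4).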

Additional observations from a re-analysis of the deposited data

Results flagged for a closer look

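In 3 of the 60 groups of 5 or 6 arrays examined, the lowest array lay far from the others, where chance gives about 1 in 20. Map2k6 was at 5.82 in replicate 1 of the male sham group, against 6.57 in the nearest array, a gap of 0.742 of the range of the group. Map3k6 was at 12.66 in replicate 2 of the male CLP group, against 13.14 in the nearest array, a gap of 0.728 of the range. Map3k8 was at 9.91 in replicate 1 of the female sham group, against 10.99 in the nearest array, a gap of 0.919 of the range.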

How the results depend on the processing

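No result changed its sign past a threshold under any alternative. Counts of the 10 genes that passed in males for landiolol compared with CLP went from 1 to 2 with 75th-percentile scaling, 2 with normexp and 3 with array weights (Mapkapk2, Mapk14 and Dusp6), and for CLP plus landiolol compared with sham from 0 to 3 at an FDR of 5% and 1 in the deposited table. In females, counts went from 0 to 1 with array weights and 3 at an FDR of 5% for CLP compared with sham, to 1 with array weights for landiolol compared with CLP, and to 1 with normexp, 1 with array weights and 1 at an FDR of 5% for CLP plus landiolol compared with sham. Leaving out each array gave 1 to 3 genes for CLP compared with sham in males, with 1 gene without replicate 3 or without replicate 4 of the CLP group. It gave 1 to 2 for landiolol compared with CLP in males, 0 to 1 for CLP plus landiolol compared with sham in females, and 0 to 0 in the other comparisons. The cause of these shifts was not tested. Of the values of single genes under the alternatives, 2631 kept their direction and call, 20 gained a call, 11 lost it and 94 changed sign without a call. No paired analysis was possible because the replicate numbers only follow the order of the samples. Dim signals limit Dusp4 and Map2k6, and 5 or 6 arrays per group limit the rest.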
